A study of Mus musculus with 6 samples.

Results

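Thbs2, P2ry14, Ptprf, Slc7a7, Rhoh, Rab6b, Mgll, Ncoa1, Pof1b and Otoa were genes that the study shows with reduced expression in muscle stem cells (MuSCs) lacking Taf4a. Each also carried an annotated chromatin peak lost in those cells. The study counts many more genes with lower expression, and calls the link between changes in expression and in accessibility comparatively weak. These genes were 10 of the 14083 gene symbols with an annotated peak. Their peaks were all those annotated to the gene symbol, 31 peaks, and all peaks without an annotated gene that lie between the start and the end of the gene, 37 peaks, which gave 68 of the 75412 peaks. A peak was called lost when the mean of the 6 libraries exceeded 10 and the log2 ratio of the Taf4a sKO mean to the control mean, with 1 added to each, was below -1, and gained when it was above 1. The lost peak of each gene was thus chosen from the same comparison of genotypes, so all values of the 10 genes in that comparison are given below as descriptions without a test. The lower expression belongs to the choice of the genes and was not measured here.

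ATAC-seq, in which the transposase Tn5 places sequencing adapters into accessible DNA, was carried out on freshly isolated MuSCs of C57BL/6 mice. The control group had 3 libraries. The Taf4a sKO group, also with 3 libraries, came from Pax7CreERT/Taf4a flox/flox mice treated with tamoxifen, in which exons flanked by loxP sites are removed in Pax7-expressing cells, so a cell that escaped recombination keeps the gene. After removal of CD45-, CD31- and SCA1-positive cells, MuSCs were sorted either by integrin α7 or, from Pax7-zsGreen reporter mice, by green fluorescence, and the sources do not say which sort or which reporter alleles these libraries had. Controls were littermates. The control libraries are titled WT, while the study's methods list controls with 2 floxed Taf4a alleles, with or without the Cre allele. Beyond that title, the sample labels give neither the alleles of these control mice nor whether they received tamoxifen. The age of single animals is not given in the labels either. In the targeted gene, listed under the symbol Taf4, the peak over the floxed exon 12 (chr2:179922849-179923263) had values of 65, 78 and 137 in control and 44, 22 and 25 in Taf4a sKO libraries. It fell by 1.58 on the log2 scale (SE 0.30, adjusted p = 0.000336, limma), the direction that the labels give. Taf4 peaks away from the floxed exons differed too, so the fall was not confined to the deleted part. The peak at chr2:179931701-179932202 fell by 0.83 (SE 0.15, adjusted p = 0.000135, limma) and that at chr2:179916955-179917641 fell by 0.49 (SE 0.18, adjusted p = 0.0267, limma), while that at chr2:179979788-179980166 rose by 0.55 (SE 0.14, adjusted p = 0.00295, limma). The peak over the Taf4 start was not called, with a log2 fold change of -0.07 (SE 0.10). Because cells were measured in bulk, fewer cells with an accessible site and less accessibility per cell cannot be told apart. All values are read counts per peak after scaling for depth and rounding, which summed to 37722015, 35226223 and 42803315 in control and to 44311913, 41661725 and 41948821 in Taf4a sKO libraries.

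TAF4A is a subunit of TFIID, the complex that places RNA polymerase II at gene starts. MuSCs are quiescent, Pax7-positive cells beneath the basal lamina of the muscle fibre that are activated by injury. Accessible regions mark gene starts and distal regulatory elements, and the accessibility of a start is related to transcription of the gene without being a measure of it. The 10 genes do not form a pathway. Thbs2, P2ry14, Ptprf and Slc7a7 encode proteins of the cell surface or the matrix around it, Rhoh and Rab6b encode small GTPases, Mgll encodes a lipid-hydrolysing enzyme, Ncoa1 a coactivator of nuclear receptors, and Pof1b and Otoa proteins known from epithelia and the inner ear.

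The sequences below are the 200 bases around the centre of each lost peak, from the GRCm38.p6 (mm10) genome, plus strand, 5′ to 3′. They are shown because these 10 elements define the group, and capitals mark the motif matches found by search on both strands. Searched were CCAAT for NF-Y, GGGCGG for Sp factors, TGANTCA for AP-1, CAGCTG for the E-box bound by myogenic bHLH factors, TGGGAA for RBPJ, and TATAAA for the TATA box. No base of the 10 windows lay in matches of 2 motifs. The peak of Mgll has only 167 bases, so its window extends beyond it.
Thbs2 (chr17:14702882-14703081): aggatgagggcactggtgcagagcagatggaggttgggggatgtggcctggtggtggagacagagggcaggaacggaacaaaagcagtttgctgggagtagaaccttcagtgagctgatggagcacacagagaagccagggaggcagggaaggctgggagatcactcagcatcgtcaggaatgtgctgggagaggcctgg
P2ry14 (chr3:59151921-59152120): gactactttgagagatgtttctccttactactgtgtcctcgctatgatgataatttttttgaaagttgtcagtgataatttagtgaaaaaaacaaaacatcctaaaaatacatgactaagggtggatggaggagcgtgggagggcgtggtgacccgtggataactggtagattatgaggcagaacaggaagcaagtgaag
Ptprf (chr4:118287644-118287843): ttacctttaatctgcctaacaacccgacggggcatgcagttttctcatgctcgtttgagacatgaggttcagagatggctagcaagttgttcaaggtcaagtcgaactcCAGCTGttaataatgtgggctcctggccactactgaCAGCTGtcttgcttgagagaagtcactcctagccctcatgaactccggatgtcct
Slc7a7 (chr14:54409816-54410015): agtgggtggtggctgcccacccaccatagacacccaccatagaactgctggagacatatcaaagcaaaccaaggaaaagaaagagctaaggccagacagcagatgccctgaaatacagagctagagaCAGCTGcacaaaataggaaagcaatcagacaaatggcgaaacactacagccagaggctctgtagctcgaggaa
Rhoh (chr5:65863441-65863640): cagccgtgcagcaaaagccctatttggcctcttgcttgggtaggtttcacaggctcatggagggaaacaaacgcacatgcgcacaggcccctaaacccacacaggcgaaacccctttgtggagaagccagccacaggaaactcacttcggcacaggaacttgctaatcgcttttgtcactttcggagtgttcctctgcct
Rab6b (chr9:103108740-103108939): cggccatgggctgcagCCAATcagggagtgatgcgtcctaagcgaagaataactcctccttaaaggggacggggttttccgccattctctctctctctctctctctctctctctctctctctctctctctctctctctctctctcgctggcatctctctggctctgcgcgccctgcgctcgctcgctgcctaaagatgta
Mgll (chr6:88715600-88715799): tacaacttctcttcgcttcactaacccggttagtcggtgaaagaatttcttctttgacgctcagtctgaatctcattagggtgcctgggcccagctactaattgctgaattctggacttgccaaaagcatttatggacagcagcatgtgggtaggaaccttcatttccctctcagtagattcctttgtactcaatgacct
Ncoa1 (chr12:4481792-4481991): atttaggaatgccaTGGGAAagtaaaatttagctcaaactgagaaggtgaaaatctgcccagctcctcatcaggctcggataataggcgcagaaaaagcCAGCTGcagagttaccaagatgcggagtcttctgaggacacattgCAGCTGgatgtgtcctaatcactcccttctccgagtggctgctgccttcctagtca
Pof1b (chrX:112698461-112698660): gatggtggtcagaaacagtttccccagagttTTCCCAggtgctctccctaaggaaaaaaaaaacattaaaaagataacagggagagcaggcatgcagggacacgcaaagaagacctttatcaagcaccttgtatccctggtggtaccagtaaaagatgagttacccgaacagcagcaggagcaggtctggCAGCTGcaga
Otoa (chr7:121083091-121083290): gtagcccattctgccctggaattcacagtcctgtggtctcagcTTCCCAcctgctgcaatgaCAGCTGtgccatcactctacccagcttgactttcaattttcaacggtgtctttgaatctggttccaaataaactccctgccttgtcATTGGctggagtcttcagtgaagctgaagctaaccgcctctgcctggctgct

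CAGCTG was found in 5 of the 10 windows, those of Ncoa1, Otoa, Pof1b, Ptprf and Slc7a7, with 2 copies each in Ncoa1 and Ptprf. It was found in 21.6% of the same windows around all peaks and in 35.3% of those around all lost peaks. TGGGAA was found in the windows of Ncoa1, Otoa and Pof1b, against 19.9% of all peaks and 20.7% of all lost peaks. CCAAT was found in Otoa and Rab6b, against 23.0% of all peaks and 25.3% of all lost peaks. The Sp motif was in none of the 10 windows, against 15.5% of all peaks and 4.90% of all lost peaks. The AP-1 motif was also in none, against 17.3% and 16.6%, as was the TATA box, against 6.33% and 8.10%. The Mgll, P2ry14, Rhoh and Thbs2 windows held none of the searched letters. The Rab6b window was repeat-masked over 100% of its length, and its long ct run can be seen in the sequence. A match is a description of letters in the window and not of bound factors.

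**Figure D1:**
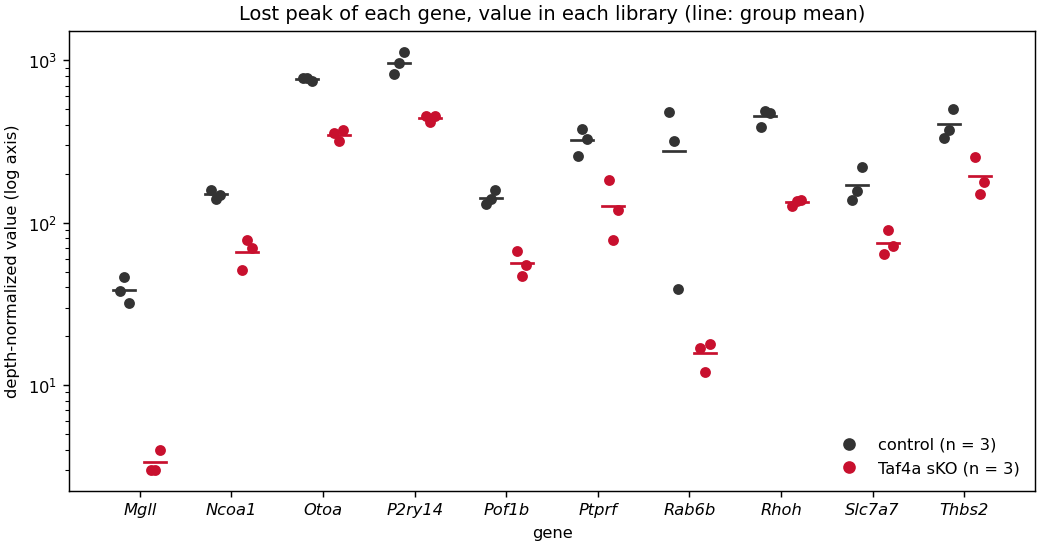
Depth-normalized value of the lost peak of each of the 10 genes, on a log axis. Each point is 1 library, control in black and Taf4a sKO in red, with a line at the group mean. The peaks were chosen on the ratio of the means, the genotypes do not overlap at any of the 10, and 1 control library of Rab6b, at 39, lies far below the other controls.

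Thrombospondin 2, the matricellular glycoprotein encoded by Thbs2, restrains angiogenesis and matrix assembly. Its lost peak (chr17:14702700-14703263, 564 bp) lay 8746 bp upstream of the gene start. The values were 332, 373 and 505 in control and 255, 151 and 178 in Taf4a sKO libraries, a log2 ratio of -1.05. This was the lost peak nearest to the threshold of the 10, and the control library with 505 and the Taf4a sKO library with 255 were the highest of their groups. It no longer met the threshold when single libraries were left out, with -0.85 without control replicate 3, -0.89 without Taf4a sKO replicate 2 and -0.99 without Taf4a sKO replicate 3. The peak over the start of Thbs2 had values of 1267, 1182 and 1431 in control and 994, 756 and 797 in Taf4a sKO libraries, a log2 ratio of -0.61. All Taf4a sKO values lay below the control values there too. A peak 2621 bp upstream of the start went the other way, with 110, 130 and 107 in control and 223, 188 and 179 in Taf4a sKO libraries, a log2 ratio of 0.76.

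P2ry14 encodes a G protein-coupled receptor for UDP-glucose and related nucleotide sugars. Its lost peak (chr3:59151659-59152382, 724 bp) lay within the gene, 1598 bp from its start. The values were 821, 962 and 1125 in control and 452, 415 and 457 in Taf4a sKO libraries, a log2 ratio of -1.13. The Taf4a sKO libraries lay close together and well below the lowest control library. The peak at the gene start, 35 bp away, had 589, 673 and 799 in control and 487, 393 and 360 in Taf4a sKO libraries, a log2 ratio of -0.73. The 3 other peaks of the gene beyond about 1.5-fold had log2 ratios of -0.63, -0.71 and -0.82. The ratio of -0.63 was -0.38 without control replicate 3. In 6 of the 7 P2ry14 peaks all Taf4a sKO values lay below all control values. All 7 peaks lie inside the longer gene Med12l, so they cannot be assigned to P2ry14 alone. At the start of Med12l, a paralogue of the Mediator subunit Med12, the peak fell from 1268, 1359 and 1393 in control to 1099, 1051 and 965 in Taf4a sKO libraries (log2 fold change -0.37, SE 0.11, adjusted p = 0.00674, limma), a call lost without Taf4a sKO replicate 3 (adjusted p = 0.0721, limma).

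Ptprf encodes LAR, a receptor-type tyrosine phosphatase of cell adhesion sites. Its lost peak (chr4:118287478-118288009, 532 bp) lay in the gene, 3662 bp from the start. The values were 258, 377 and 330 in control and 183, 78 and 119 in Taf4a sKO libraries, a log2 ratio of -1.34. Both groups were spread, but the highest Taf4a sKO library lay below the lowest control library. The peak over the start had 920, 869 and 965 in control and 906, 880 and 879 in Taf4a sKO libraries, a log2 ratio of -0.05. The groups overlapped at the start. Ptprf was the only one of the 10 genes with gained peaks. The peak chr4:118268605-118269132, 22537 bp into the gene, had 43, 49 and 43 in control and 226, 148 and 232 in Taf4a sKO libraries, a log2 ratio of 2.14. The peak chr4:118265601-118265873, 25668 bp into the gene, had 28, 50 and 52 in control and 201, 112 and 129 in Taf4a sKO libraries, a log2 ratio of 1.74. The 2 peaks lie in introns, flanked by further peaks with higher values in Taf4a sKO libraries, of which the one 30390 bp into the gene had 301, 322 and 336 in control and 548, 495 and 516 in Taf4a sKO libraries, a log2 ratio of 0.70.

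Slc7a7 encodes y+LAT1, the light chain of a transporter that exchanges cationic for neutral amino acids and pairs with the heavy chain Slc3a2. Its lost peak (chr14:54409695-54410136, 442 bp) lay 7865 bp into the gene and 287 bp from the start of another annotated Slc7a7 transcript. The values were 138, 157 and 220 in control and 64, 90 and 72 in Taf4a sKO libraries, a log2 ratio of -1.18. Without control replicate 3, the highest of the controls, the ratio was -0.96 and no longer past the threshold. A second lost peak (chr14:54378001-54378384), 39588 bp into the gene, had 86, 93 and 111 in control and 22, 22 and 10 in Taf4a sKO libraries, a log2 ratio of -2.36. Slc7a7 was the gene whose peaks were lower throughout, since all 6 had Taf4a sKO values below every control value. The strongest, 23722 bp into the gene, had 1267, 1131 and 1424 in control and 759, 706 and 714 in Taf4a sKO libraries, a log2 ratio of -0.81. The annotated peak nearest the gene start, 4262 bp from it and 496 bp from the start of another transcript, had 970, 968 and 1112 in control and 717, 637 and 681 in Taf4a sKO libraries, a log2 ratio of -0.58. The remaining 2 peaks had log2 ratios of -0.67 each.

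Rhoh encodes a small GTP-binding protein that lacks GTPase activity and is known from blood cells. Its lost peak (chr5:65863256-65863825, 570 bp) lay 2327 bp into the gene, with its centre 40 bp from the start of another annotated Rhoh transcript. The values were 389, 491 and 477 in control and 126, 136 and 138 in Taf4a sKO libraries, a log2 ratio of -1.75. The Taf4a sKO libraries agreed closely. At the annotated gene start the peak was small, with 100, 128 and 111 in control and 97, 81 and 80 in Taf4a sKO libraries, a log2 ratio of -0.39. A peak 5363 bp into the gene had 71, 93 and 110 in control and 47, 71 and 62 in Taf4a sKO libraries, a log2 ratio of -0.60, with overlapping groups. Both peaks upstream of the gene had higher values in all Taf4a sKO libraries, with log2 ratios of 0.42 and 0.44. They overlap the genes Gm42645 and Gm43004, so they cannot be assigned to Rhoh alone.

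Rab6b encodes a small GTPase of transport between Golgi and endoplasmic reticulum, best known from neurons. Its lost peak (chr9:103108368-103109310, 943 bp) lay 2948 bp upstream of the gene start. The values were 479, 317 and 39 in control and 17, 12 and 18 in Taf4a sKO libraries, a log2 ratio of -4.07. Control replicate 3 was 9.80% of the mean of the other controls, and only 19 of the 75384 peaks tested deviated as far down in that library. Its value still lay above those of all Taf4a sKO libraries. Without it the log2 ratio was -4.58, and without control replicate 1 it was -3.42. A further pair of Rab6b peaks met the threshold. The peak chr9:103153034-103153917, 41688 bp into the gene, had 201, 204 and 159 in control and 114, 67 and 88 in Taf4a sKO libraries, a log2 ratio of -1.06. This ratio was -0.89 without Taf4a sKO replicate 2 and no longer past the threshold. The peak chr9:103174681-103175212, 63159 bp into the gene, had 242, 239 and 174 in control and 87, 56 and 68 in Taf4a sKO libraries, a log2 ratio of -1.62. The peak over the start had 1542, 1336 and 915 in control and 834, 771 and 834 in Taf4a sKO libraries, a log2 ratio of -0.64. At the start and at these 2 peaks control replicate 3 was at 63.6%, 78.5% and 72.3% of the mean of the other controls. There this library lay between them and the Taf4a sKO libraries. At the peaks 22869, 69157 and 70326 bp into the gene it was at 82.8%, 118% and 101%. A last peak, 70326 bp into the gene, had 100, 91 and 96 in control and 62, 47 and 53 in Taf4a sKO libraries, a log2 ratio of -0.81.

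Mgll encodes monoacylglycerol lipase, which hydrolyses the endocannabinoid 2-arachidonoylglycerol. Its lost peak (chr6:88715616-88715782), 8713 bp upstream of the start, was the weakest of the gene's 12 peaks. The values were 38, 46 and 32 in control and 3, 3 and 4 in Taf4a sKO libraries, a log2 ratio of -3.19. Divided by the depth factor, these were 27, 46 and 26 reads in control and 2, 2 and 3 reads in Taf4a sKO libraries, so the size of this difference rests on few reads. The peak over the start had 1235, 1106 and 1189 in control and 833, 730 and 826 in Taf4a sKO libraries, a log2 ratio of -0.56. All Taf4a sKO values lay below the controls. This peak also overlaps the gene Gm26588. Of the intronic peaks, the one 39853 bp into the gene had 425, 385 and 670 in control and 248, 336 and 305 in Taf4a sKO libraries, a log2 ratio of -0.73. This ratio was -0.45 without control replicate 3, the library with 670. In the opposite direction, the peak 92606 bp into the gene had 125, 191 and 308 in control and 380, 356 and 506 in Taf4a sKO libraries, a log2 ratio of 0.99 and thus just under the threshold for a gained peak.

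Ncoa1 encodes SRC-1, a p160 coactivator that nuclear receptors recruit. Its lost peak (chr12:4481782-4482000, 219 bp) lay 4709 bp upstream of the start. The values were 160, 140 and 148 in control and 51, 78 and 70 in Taf4a sKO libraries, a log2 ratio of -1.16. The peak over the start was the strongest of the 68 peaks in control libraries, with 2313, 2179 and 2594 in control and 2570, 2606 and 2517 in Taf4a sKO libraries. Its groups overlapped, and its log2 ratio of 0.12 turned to -0.03 under other scalings of the libraries. A second lost peak (chr12:4311947-4312142), 165138 bp into the gene, had 50, 57 and 68 in control and 28, 11 and 14 in Taf4a sKO libraries, a log2 ratio of -1.67.

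Pof1b encodes an actin-binding protein of epithelial junctions. It was the gene whose lost peak (chrX:112698256-112698865, 610 bp) covered the gene start, with its centre 91 bp from it. The values were 131, 140 and 158 in control and 67, 47 and 55 in Taf4a sKO libraries, a log2 ratio of -1.33. The only other peak, 4195 bp into the gene, had 97, 180 and 339 in control and 96, 111 and 101 in Taf4a sKO libraries. Its log2 ratio of -0.99 was just outside the threshold, and its groups overlapped.

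Otoa encodes otoancorin, which attaches gels of the inner ear to the underlying epithelium. Its lost peak (chr7:121082896-121083485, 590 bp) lay 1540 bp into the gene, with its centre 59 bp from the start of another annotated Otoa transcript. The values were 774, 781 and 751 in control and 355, 319 and 374 in Taf4a sKO libraries, a log2 ratio of -1.14. The spread within each group was small beside the difference. It was the strongest peak of the gene and held 44.1% of the control sum over its 6 peaks. The annotated peak nearest the gene start was centred 472 bp upstream of it and did not reach it. This peak had 220, 212 and 177 in control and 237, 285 and 239 in Taf4a sKO libraries, a log2 ratio of 0.32. The groups did not overlap at either of these 2 peaks, and the ratios were of opposite sign.

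**Figure D2:**
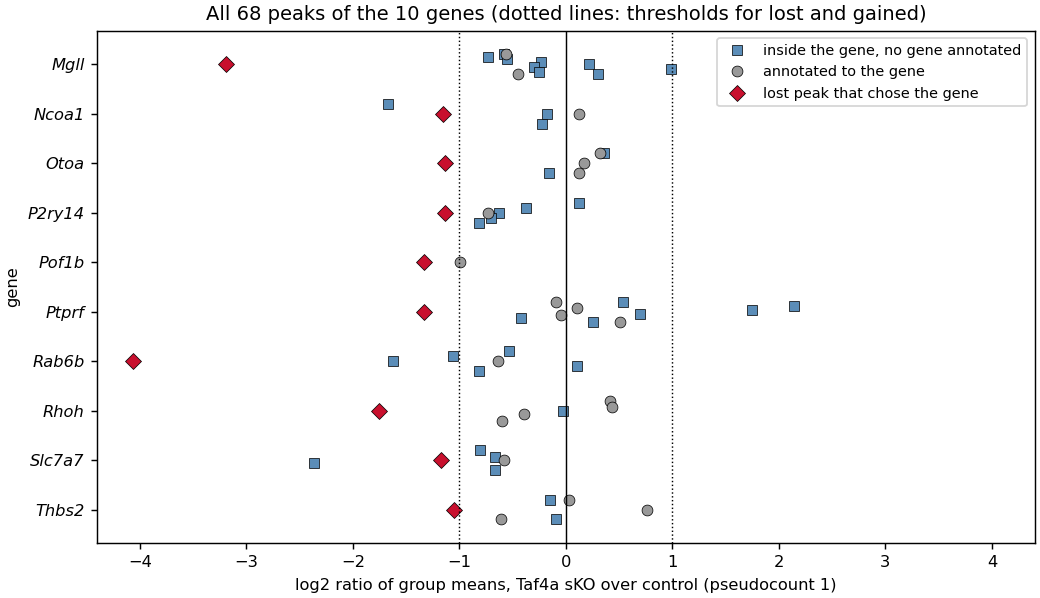
Log2 ratio of the Taf4a sKO to the control mean (1 added to each) for the 68 peaks of the 10 genes, one row per gene. Red diamonds are the lost peaks that chose the genes, grey circles other annotated peaks and blue squares peaks inside the gene without an annotated gene. The 4 further lost peaks lie in Ncoa1, Rab6b and Slc7a7 and the 2 gained peaks in Ptprf.

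Over all 68 peaks, 14 were lost and 2 gained, against 5.36% lost and 7.02% gained of the 75384 peaks with a mean above 10, which all 68 peaks reached. In 35 of the 68 peaks every Taf4a sKO value lay below every control value and in 11 above, against 18.0% and 32.3% of all peaks. Nothing is read from these counts, since the rule chose the genes by lost peaks, which 4.06% of gene symbols with a tested peak had. Without the 10 lost peaks that chose the genes, 58 remained, of which 25 had all Taf4a sKO values below the controls and 11 above, with a median log2 ratio of -0.23 against 0.10 for all peaks. The limma threshold that is applied to other genes below would put 32 of the 68 peaks lower and 11 higher, against 13.9% and 28.0% of all peaks. This is given as a count only because the test does not hold for peaks chosen on this comparison. The lost peak of Rab6b, which had the lowest ratio, is not among the 32, while those of the other 9 genes are.

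The genes differed in how far the lower values extended. All Taf4a sKO values lay below all control values in 6 of 6 peaks of Slc7a7, 6 of 7 of P2ry14, 6 of 7 of Rab6b and 8 of 12 of Mgll. Of all peaks 18.0% lay below in this way, and the rule chose each of these genes by a lower peak. In Otoa this held for 1 of 6, in Ptprf for 1 of 11 and in Pof1b for 1 of 2, in each case the lost peak itself, and in 5 Ptprf peaks all Taf4a sKO values lay above the controls. In Pof1b the sum over its 2 peaks had a log2 ratio of -1.13, or -0.78 without control replicate 3, and the peak that was not lost had -0.99, or -0.43 without the same library. The log2 ratio of the sum over all peaks was -0.76 in Slc7a7, -0.76 in Rab6b and -0.65 in P2ry14, and without the lost peak it was -0.74, -0.60 and -0.55. In Mgll the sum had a log2 ratio of only -0.17, or -0.09 without control replicate 3, and without the lost peak its groups overlapped. In Otoa the sum went from -0.22 to 0.24 when the lost peak was left out. In Ptprf it was 0.22 and in Ncoa1 -0.02, or 0.04 without control replicate 3, and in Rhoh it was 0.09 as deposited and -0.02 with TMM scaling. The share of the control sum that the lost peak held ran from 0.859% in Mgll and 4.04% in Ncoa1 to 41.1% in Pof1b and 44.1% in Otoa.

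**Figure D3:**
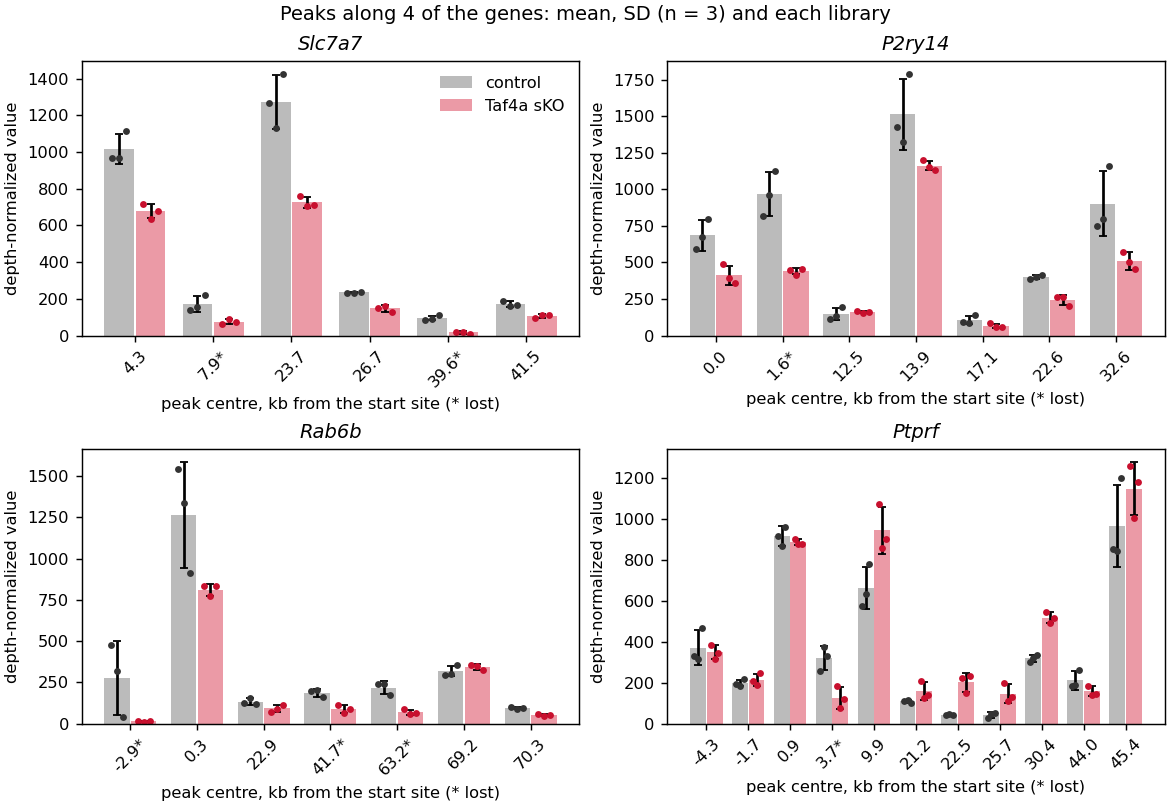
Peaks of Slc7a7, P2ry14, Rab6b and Ptprf in order of distance from the gene start (kb, negative upstream), with bars for the mean, error bars for the SD of 3 libraries and points for the libraries. Asterisks mark lost peaks. All 6 Slc7a7 peaks are lower in Taf4a sKO, while Ptprf has 1 lost peak and higher values from 9855 to 30390 bp.

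At the annotated peak nearest the start, which lay within 1000 bp of it except in Slc7a7 (4262 bp), all Taf4a sKO values lay below the controls in 7 of the 10 genes and above them in 1, Otoa, while the groups overlapped in Ncoa1 and Ptprf. Of the 14081 nearest peaks of all gene symbols, 16.6% of which lay more than 1000 bp from the start, 12.6% lay below and 19.5% above in this way. Among the 7 is the lost peak of Pof1b, and nothing is read from the count. Apart from Pof1b, the log2 ratios at this nearest peak ran from -0.73 in P2ry14 to 0.32 in Otoa, each nearer to 0 than at the lost peak of the same gene. This order follows in part from the rule, which took the lost peak of each gene and not its start.

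**Figure D4:**
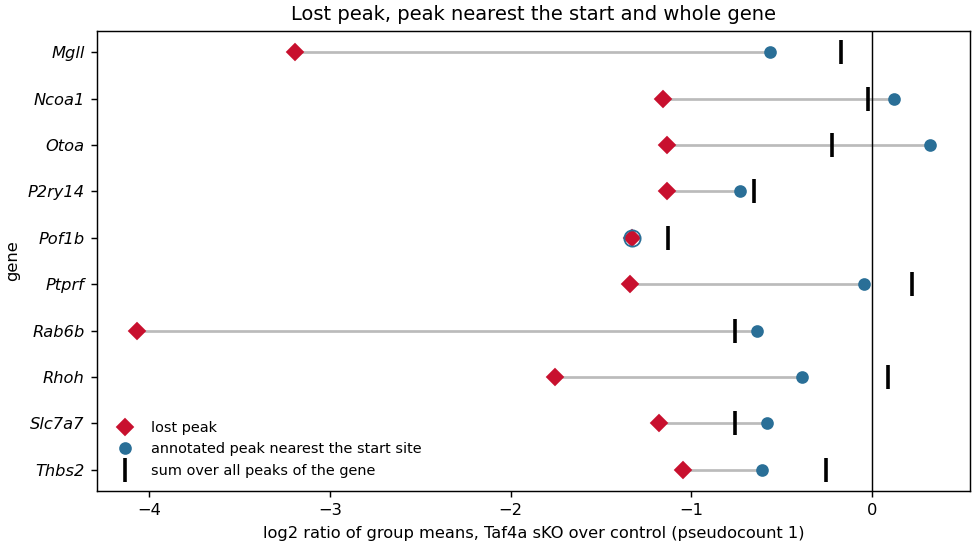
Log2 ratio of the lost peak (diamond), of the annotated peak nearest the start (circle) and of the sum over all peaks of the gene (bar), one row per gene. In Pof1b the lost peak is the one nearest the start. In Otoa and Ncoa1 the ratio nearest the start is above 0, in Ncoa1 only under some scalings.

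The lost peaks of the 10 genes were set beside all 625 lost peaks with a gene symbol, without a test. Their median width was 567 bp against 374 bp, and their median control value was 300 against 110. Their median distance from the start was 3304 bp against 5166 bp, and 1 of 10 lay within 1000 bp of the start against 17.1%. GC content of the windows was 49.2% in the median against 52%. Of all 23233 peaks with a gene symbol, 51.6% lay within 1000 bp of the start, and their median control value was 530. Of the 10 lost peaks 4 lay upstream of the gene and 6 within it, and the centres of 4, those of Otoa, Pof1b, Rhoh and Slc7a7, lay within 300 bp of an annotated transcript start of the gene.

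Peaks within 500000 bp on each side of the lost peak, leaving out the gene and its own peaks, were counted without a test, beside the 5.36% lost and 7.02% gained of all peaks. Near Thbs2 11 of 47 peaks were lost and 0 gained, near Mgll 6 of 33 were lost and 1 gained, and near Rhoh 6 of 41 were lost and 2 gained. Near Otoa 0 of 19 and near Slc7a7 0 of 66 were lost, with 1 and 3 gained. Near Rab6b 5 were lost and 6 gained of 71. Near Ncoa1 3 of 39, near Ptprf 2 of 34, near P2ry14 1 of 28 and near Pof1b 1 of 12 were lost, with 1, 2, 1 and 0 gained.

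Genes listed beside each of the 10 for their family, pathway or, in the case of Med12l, their position were not chosen by this comparison and were tested at their annotated peak nearest the start. Of 77 listed genes 57 had an annotated peak, and in 6 of these the nearest lay more than 1000 bp away, in Rnd3, Tectb, Tecta, Cnr2, Tjp1 and Rac2 (1010 to 9048 bp), none of them called. By limma with adjustment over all peaks, 3 fell, 6 rose and 48 were not called, none was lost or gained, and the median log2 fold change was 0.05. Of the nearest peaks of all 14081 gene symbols 7.21% were lower and 11.5% higher, shares to which those of the listed genes are close. Med12l, which contains P2ry14 and is not its relative, is 1 of the 3 that fell, and without it 2 of 56 fell. Without control replicate 3, 17 of the 57 rose. With TMM scaling 11 fell and 6 rose, because that scaling lowers the median log2 ratio of all peaks from 0.10 to -0.01, so small differences in one direction depend on the scaling.

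Among thrombospondins and their receptors, 2 of 4 rose and 1 fell, with Thbs1 and Comp in opposite directions, beside 11.5% higher and 7.21% lower of the nearest peaks of all genes. Whether this family differs from other genes was not tested. Thbs1, the closest relative of Thbs2, had 1730, 1583 and 2147 in control and 2934, 2675 and 2675 in Taf4a sKO libraries (log2 fold change 0.61, SE 0.11, adjusted p = 0.000127, limma). The start of Comp, a cartilage matrix thrombospondin, had 103, 79 and 94 in control and 47, 41 and 50 in Taf4a sKO libraries (log2 fold change -0.98, SE 0.21, adjusted p = 0.000715, limma). The groups did not overlap at either start. Cd47, a cell surface receptor of thrombospondin, also rose, by 0.72 (SE 0.24, adjusted p = 0.0177, limma), from values of only 40, 37 and 39. This call was lost without control replicate 2 and without Taf4a sKO replicate 1 (highest adjusted p = 0.119, limma), while those of Thbs1 and Comp held with each library left out.

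In the amino acid transporter family of Slc7a7, 3 of 8 measured genes rose and none fell, beside 11.5% higher and 7.21% lower of the nearest peaks of all genes. Whether this family differs from other genes was not tested. The start of Slc7a11, the cystine-glutamate exchanger, had 92, 72 and 92 in control and 153, 134 and 151 in Taf4a sKO libraries (log2 fold change 0.77, SE 0.18, adjusted p = 0.00123, limma). The cationic amino acid transporters Slc7a2 and Slc7a1 rose by 0.32 (adjusted p = 0.0166, limma) and 0.26 (adjusted p = 0.0417, limma). Slc3a2, the heavy chain that Slc7a7 needs at the membrane, was not called, with a log2 fold change of 0.08 (SE 0.11). The call of Slc7a11 held with each library left out. That of Slc7a2 was lost without control replicate 1 or 2 or Taf4a sKO replicate 1 or 2 (highest adjusted p = 0.0857, limma), and that of Slc7a1 without any one library except control replicate 3 (highest adjusted p = 0.211, limma).

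The other lists held 3 called genes besides. Faah, the fatty acid amide hydrolase that degrades the endocannabinoid anandamide, fell by 0.35 (SE 0.13, adjusted p = 0.0365, limma), while the other 7 genes of that list, among them the receptor Cnr1, were not called. P2ry2, a receptor for ATP and UTP, rose by 0.34 (SE 0.13, adjusted p = 0.0363, limma), and Med12l is given above with P2ry14. The Faah call was lost without control replicate 2 and without each Taf4a sKO replicate (highest adjusted p = 0.142, limma). The P2ry2 call was lost without any one library except control replicate 3 and under 3 of the 4 other scalings (highest adjusted p = 0.304, limma). No gene was called in the lists of coactivator partners (5 measured), tectorial membrane proteins (2), epithelial junction proteins (6), receptor phosphatases and liprins (5), Rab6 partners (5) and small GTPases related to Rhoh (10). The smallest p of these lists belonged to Crebbp, Tectb, Jup, Ptprs, Bicd2 and Rhou, with log2 fold changes of 0.11, -0.40, 0.16, 0.24, 0.18 and -0.27 and adjusted p of 0.397, 0.236, 0.223, 0.0917, 0.170 and 0.0656 (limma).

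**Figure D5:**
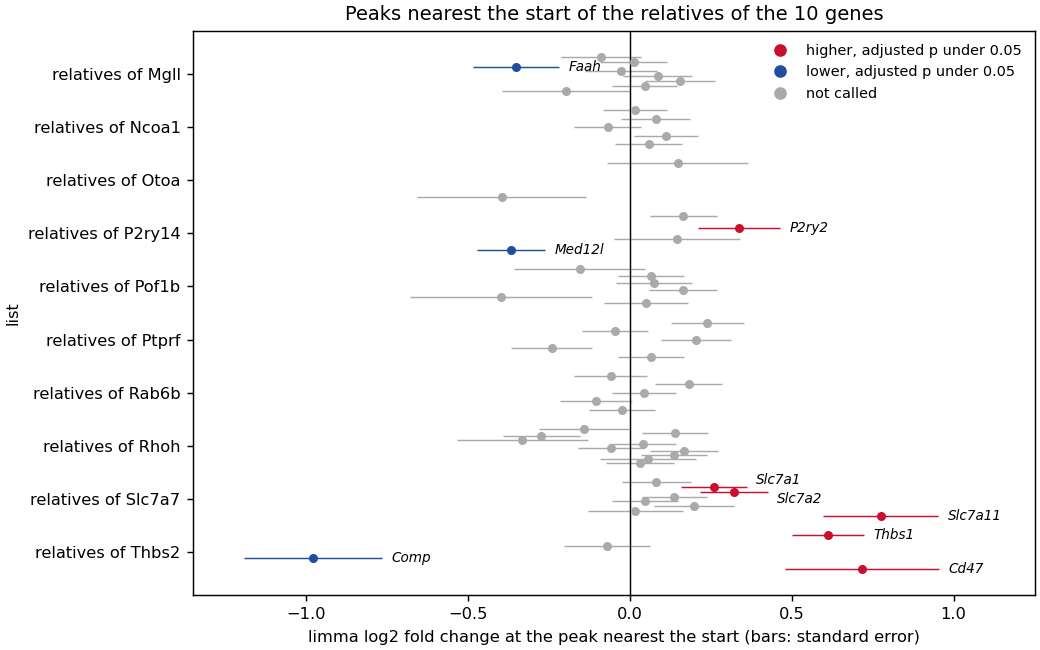
Limma log2 fold change at the annotated peak nearest the start, with its standard error, of the 57 measured genes listed beside the 10 (Med12l for its position, the others as relatives), one row per gene of the 10. Red points rose, blue points fell and grey points were not called at an adjusted p under 0.05. The calls of Thbs1, Slc7a11 and Comp held under every alternative run.

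Rhoh, Otoa and Pof1b are known mainly from other cell types, so markers of such cells were examined at their annotated peak nearest the start. In 10 of the 35 measured markers it lay more than 1000 bp away, among them the called Csf1r (8036 bp), Acta1 (3196 bp), Pdgfra (2177 bp) and Sox10 (1674 bp). Of the 8 MuSC markers all were measured. Their sums were 13111, 10818 and 13277 in control and 12267, 11579 and 11672 in Taf4a sKO libraries, with overlapping groups. Pax7, the most abundant, fell by 0.32 (SE 0.11, adjusted p = 0.0302, limma) and Vcam1 rose by 0.35 (SE 0.12, adjusted p = 0.0184, limma). The call of Pax7 was lost without any one library except control replicate 2 and that of Vcam1 without Taf4a sKO replicate 1 or 2 and under 2 other scalings (highest adjusted p = 0.325 and 0.275, limma). None of the lymphoid markers Ptprc, Cd3e, Cd3d, Cd79a and Lck had an annotated peak. Of the myeloid markers 3 of 6 were measured, with sums of 793, 924 and 1030 in control and 1119, 1013 and 1208 in Taf4a sKO libraries. Spi1 was the most abundant and was not called, Csf1r rose by 0.90 (SE 0.16, adjusted p = 0.000101, limma) and Cd68 fell by 0.84 (SE 0.17, adjusted p = 0.000370, limma), so the 2 called myeloid markers moved in opposite directions.

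Of the epithelial markers 2 of 4 were measured, with sums of 384, 358 and 531 in control and 295, 285 and 286 in Taf4a sKO libraries. The most abundant, Krt8, fell by 0.87 (SE 0.19, adjusted p = 0.00103, limma), while Krt18 and Cdh1 had no annotated peak. Whether cells of this kind had a part in the values of Pof1b was not tested. All 48 listed markers together had 35 measured, of which 7 fell, 8 rose and 20 were not called, beside 7.21% lower and 11.5% higher of the nearest peaks of all genes, with 1 lost peak at Sox10 and 1 gained at Lum. The balance depends on the scaling and on 1 library, since 11 fell and 7 rose with TMM factors, up to 13 fell under the other scalings, and 13 rose without control replicate 3.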

How the data were processed

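ATAC-seq values of 3 control and 3 Taf4a sKO libraries were used. The deposited values are scores: the authors trimmed reads with Trimmomatic 0.39, aligned them with STAR 2.7.11b to mm10, removed duplicates with Picard 3.1.1, called peaks with MACS in each sample, counted reads per unified peak, multiplied the counts by a depth factor and rounded them. Distances from peak centre to gene start, the other deposited column used, were those of the authors. Their annotation took the nearest gene with a promoter reaching 10000 nt from its start. By its centre, the nearest peak of a gene symbol lay up to 10938 bp away. A shift of reads for Tn5 is not given in the sources used here. The factor, recovered from missing whole numbers, was 1.39, 1.00 and 1.23 in control and 1.39, 1.37 and 1.29 in Taf4a sKO libraries, and 99.7% (control replicate 3) to 100% (control replicate 2) of values up to 1500 were whole reads times the factor, rounded. Columns of sample values left unused were 0. The authors' contrasts were not used.

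Log2(value + 1) was tested with limma 3.58.1 (R 4.3.3; mean-variance trend, robust moderation) over the 75384 peaks with a mean above 10, with Benjamini-Hochberg adjustment, after a check on simulated data. Distances to other transcript starts came from GENCODE vM21, sequences from GRCm38.p6, with Python 3.11.15. Peak coordinates are as deposited. The genes, lists, motifs and tests were chosen with earlier results of these data known. Named were the lost peak of each gene, the annotated peak nearest its start, other peaks beyond about 1.5-fold or the only other peak, and of each list of relatives the gene with the smallest p and the called ones. The neighbourhood of 500000 bp was added to these. Labels do not say whether libraries of a group came from separate animals, though the study's text calls them biological replicates. With 3 libraries a genotype, precision is limited. Alternatives covered scaling, minimum, pseudocount, threshold, moderation, block and each library left out.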

Additional observations from a re-analysis of the deposited data

How the results depend on the processing

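The log2 ratios of the 10 lost peaks stayed below 0 under all alternatives run, and all 10 passed the threshold under each scaling and pseudocount. With a minimum mean of 50 the Mgll peak was not tested. Without control replicate 3, Slc7a7 and Thbs2 missed the threshold, and without Taf4a sKO replicate 2 or 3, Thbs2 did. The Rab6b ratio ran from -4.58 to -3.42 over the libraries left out. At a threshold of about 1.5-fold, 27 of the 68 peaks were lost and 5 gained, and at 1.5 on the log2 scale 6 were lost. Calls of lower peaks among relatives moved from 3 to 11 with TMM and with median-of-ratios factors, to 17 with the total of the values in peaks and to 18 with quantile normalization. Among markers they moved from 7 to 11, 11, 13 and 12 in that order. The scalings shifted the median of all peaks down, and relatives that rose numbered 5 to 6. Peaks of the 10 genes higher by limma numbered 7 with quantile normalization and 6 without trend and robust moderation, where 3 relatives rose. With 1 library left out, the 10 genes had 12 to 15 lost and 2 to 3 gained peaks, 28 to 33 lower and 6 to 12 higher by limma. In the same fits relatives had 1 to 3 lower and 2 to 17 higher, the 17 without control replicate 3, and markers 5 to 8 lower and 5 to 13 higher, the 13 without the same library. In these fits the group with 2 libraries shares the spread of the other. Deviations of same-numbered libraries correlated at 0.110, -0.118 and -0.029. Such values, from 3 libraries a genotype, cannot decide whether same-numbered libraries belong together. With the replicate number as a block, 34 peaks of the genes were lower and 11 higher, 3 relatives fell and 5 rose, and 7 markers fell and 8 rose. The call of Slc7a1 was lost with the block (adjusted p = 0.0607, limma, against 0.000658 to 0.211 over all its alternatives). The Mgll lost peak, at 2 to 3 reads in Taf4a sKO libraries, is where depth limits a ratio most. Its log2 ratio of -3.19 became -2.69 with quantile normalization and -2.39 with a pseudocount of 5.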

Other observations

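Peaks inside the 10 genes that the table annotates to another gene were left out of the values above. There were 7, of which 4 lie in Mgll, 2 in Ncoa1 and 1 in Ptprf. One was lost, at Gm44001 in Mgll (chr6:88800878-88801203), with 39, 53 and 80 in control and 33, 14 and 13 in Taf4a sKO libraries, a log2 ratio of -1.47. A peak at Gm43937, also in Mgll (chr6:88778203-88778456), had 40, 47 and 42 in control and 25, 25 and 18 in Taf4a sKO libraries, a log2 ratio of -0.89. In Ncoa1, the peak at Gm22343 (chr12:4386183-4386598) had 33, 39 and 47 in control and 72, 81 and 85 in Taf4a sKO libraries, a log2 ratio of 0.98. The other 4 had log2 ratios between -0.16 and 0.19.

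Markers of cell types other than MuSCs also changed in both directions. The study's reporting summary gives a purity range for sorted cells on reanalysis, short of full purity. It gives no separate purity for these libraries. The annotated peak nearest the start of Lum, a proteoglycan of fibroblasts, rose from 60, 56 and 54 in control to 160, 126 and 143 in Taf4a sKO libraries (log2 fold change 1.31, SE 0.19, adjusted p = 6.91e-06, limma). That of Dcn, another proteoglycan, rose by 0.84 (SE 0.17, adjusted p = 0.000323, limma) and that of Dpt, dermatopontin of the matrix, fell by 0.47 (SE 0.13, adjusted p = 0.00539, limma). The calls of Lum, Dcn and Dpt held under every alternative run. The peak of Pdgfra, the receptor that marks fibro-adipogenic progenitors, fell by 0.68 (SE 0.27, adjusted p = 0.0439, limma), a call lost without control replicate 1 or 2 or Taf4a sKO replicate 2 (highest adjusted p = 0.205, limma). The 4 measured markers of these cells summed to 686, 648 and 758 in control and to 743, 674 and 684 in Taf4a sKO libraries. The annotated peak nearest the start of Sox10, a factor of Schwann cells, fell from 65, 62 and 53 to 26, 16 and 36 (log2 fold change -1.24, SE 0.29, adjusted p = 0.00135, limma). Beside the 7.21% lower and 11.5% higher of the nearest peaks of all genes, of 5 endothelial markers 1, Tek, rose and none fell, and of 4 measured smooth muscle and pericyte markers 2, Acta2 and Myh11, rose and none fell. These calls were lost without control replicate 2 for Tek, without control replicate 1 or Taf4a sKO replicate 1 or 3 for Acta2 and without Taf4a sKO replicate 3 for Myh11, and each under 1 other fit (highest adjusted p = 0.0753, 0.0881 and 0.0746, limma). Of 5 myofibre markers 1, Acta1, with a peak 3196 bp from the start, fell by 0.67 (SE 0.15, adjusted p = 0.000849, limma) and none rose.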
